A study of Mus musculus with 12 samples.

Results

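Transcripts of 9 receptors that steer monocytes and dendritic cells through tissue were followed in 4 sorted fractions of inflamed mouse skin. The receptors are *Ccr1*, *Ccr2*, *Ccr6*, *Ccr7*, *Cx3cr1*, *Cxcr3*, *Cxcr4*, *Ccrl2* and *Cmklr1*, chosen by gene symbol. All 9 were found among the 37775 genes of the count table, and all 9 were among the 22118 genes that passed the filter on low counts. IgE-CAI is a mouse model of chronic allergic skin inflammation, and the fractions were isolated by FACS from CD45+CD11b+SiglecF-Ly6G- cells by surface Ly6C and PD-L2. They are Classical mono (Ly6ChiPD-L2lo), Early CMDM (Ly6ChiPD-L2hi), Late CMDM (Ly6CloPD-L2hi) and Resident-like (Ly6CloPD-L2lo), where CMDM stands for classical monocyte-derived macrophage, with 3 libraries each. All 12 libraries came from WT BALB/c mice that had received 300 μg of TNP-specific IgE intravenously and, a day later, 10 μg of TNP-OVA in the skin of the right ear, and cells were taken on day 5. Each library was made from 5000 to 80000 sorted cells. The study's methods describe male animals, there was no untreated fraction, and no source states whether the 3 libraries of a fraction came from separate animals or pools. The p-values therefore measure the spread between these samples, which may be technical.

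Chemokine receptors are membrane receptors that couple to inhibitory G proteins and direct cells along gradients of small secreted chemokines. In monocyte biology, CCR2 drives exit from bone marrow and entry into inflamed tissue, and CX3CR1 marks patrolling monocytes and many resident macrophages. CCR7 leads dendritic cells from skin to the draining lymph node, and CCR6 is found on immature dendritic cells and lymphocytes. CMKLR1 and CCRL2 both bind chemerin, a secreted attractant, but CCRL2 presents it without signalling. On GRCm38, *Ccr1* (123962124 to 123968692), *Ccr2* (124101950 to 124113557), *Cx3cr1* (119901616 to 120069879) and *Ccrl2* (111054486 to 111057519) lie on chromosome 9, and *Ccr1* and *Ccr2* are 133.3 kb apart. *Cmklr1* lies on chromosome 5, from 113612354 to 113650426, and *Cxcr4* on chromosome 1, from 128588199 to 128592293. *Ccr7* lies on chromosome 11, from 99144196 to 99155077. *Ccr6* lies on chromosome 17, from 8236043 to 8257141, and *Cxcr3* on chromosome X, from 101731535 to 101734269. Of the 50-base words in the *Ccr2* transcripts, 1.91% also occur in another gene, so that reads there could be split. This share was 0.269% for *Cx3cr1*, 0.15% for *Cmklr1* and 0% for the other 6 receptors.

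Total counts were 12537178 to 19844113 per library, and levels are given as CPM, the counts of a gene scaled to a common library total with TMM factors. The labels were compared with marker lists. The summed level of 4 monocyte genes was 1181 to 1763 CPM in Classical mono and 83.2 to 254 CPM in the other fractions. Of the 4, 3 were called lower and 0 higher in Late CMDM than in Classical mono. *Chil3* had a higher mean in Late CMDM (146.7 CPM) than in Classical mono (124 CPM). *Ly6c2*, the gene of the sort marker Ly6C, had a mean of 492.2 CPM in Classical mono. In Early CMDM, also sorted as Ly6Chi, its mean was 49.3 CPM. The summed level of 6 macrophage genes was highest in Late CMDM (3501 to 3655 CPM) and Resident-like (2668 to 3017 CPM), and its ranges in Early CMDM (1069 to 1755 CPM) and Classical mono (848 to 1384 CPM) overlapped. Of the 6, 2 were called higher and 1 lower in Early CMDM than in Classical mono. *Fcgr1* had its highest mean in Classical mono (87.9 CPM, against 72.4 CPM in Late CMDM and 56.5 CPM in Resident-like). Other cell types were represented too. The 6 keratinocyte genes summed to 17100 to 27280 CPM in Early CMDM against 1871 to 4050 CPM elsewhere. The 10 pan-leukocyte genes, expressed by all white blood cells, summed to only 973 to 1573 CPM in Early CMDM, against 3969 to 4313 CPM in Classical mono, 2199 to 2496 CPM in Late CMDM and 3541 to 3752 CPM in Resident-like. The levels were therefore also given per 10000 counts of these 10 leukocyte genes, a scaling chosen with these values known. The 10 genes did not keep fixed ratios to each other. On their own scale, 3 were called higher and 3 lower in Early CMDM against Classical mono (adjusted p under 0.05, edgeR). In Late CMDM against Classical mono, 4 were called higher and 4 lower. The scaling raised the median log2 fold change of all genes by 1.78 in Early CMDM and by 0.80 in Late CMDM against Classical mono, and by 0.18 in Resident-like against Classical mono. Against Late CMDM it lowered the median of Resident-like by 0.61. Against Early CMDM it lowered the median of Late CMDM by 0.98 and that of Resident-like by 1.60. In bulk samples fewer cells of a type and less RNA per cell cannot be told apart.

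**Figure D1:**
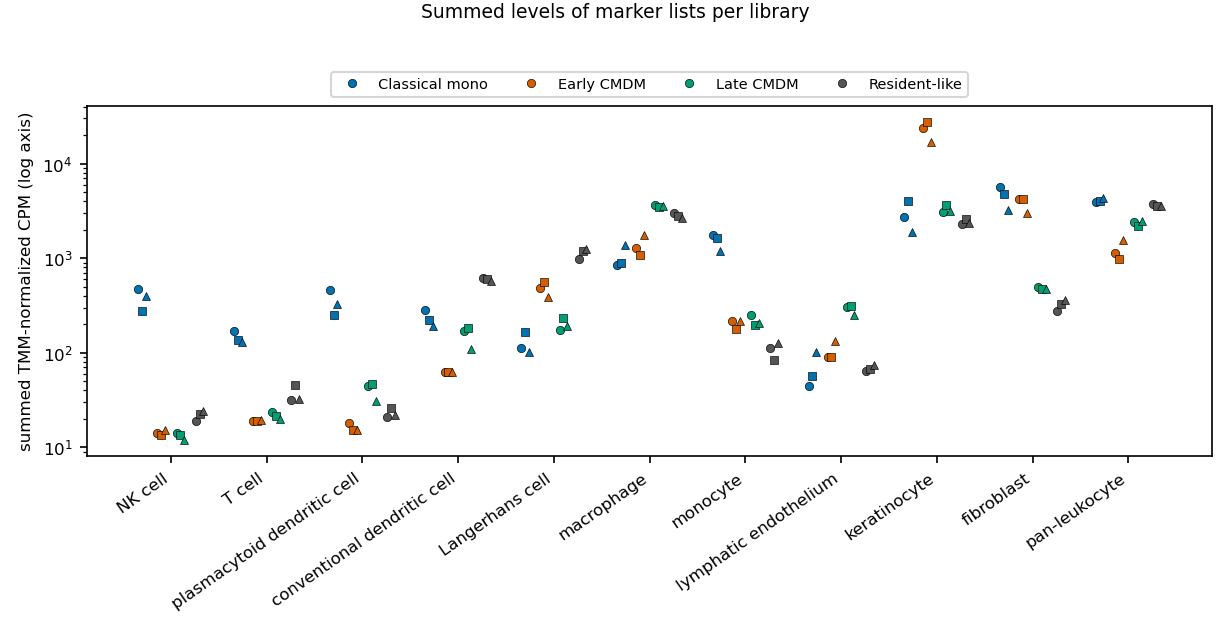
Summed TMM-normalized CPM (log axis) of 10 marker lists and the pan-leukocyte list in each library, with circle, square and triangle for replicates 1, 2 and 3. The Early CMDM libraries had the highest keratinocyte sums (17100 to 27280 CPM) and the lowest pan-leukocyte sums (973 to 1573 CPM), and the NK, T and plasmacytoid dendritic cell sums were highest in Classical mono.

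*Ccr2*, the receptor for CCL2 and CCL7, was abundant in Classical mono and Resident-like and lower in both CMDM fractions. Its level was 363, 355 and 453 CPM in the 3 Classical mono libraries, 119.7, 101.2 and 164.7 CPM in Early CMDM, 110, 98.0 and 113 CPM in Late CMDM, and 427, 432 and 456 CPM in Resident-like. Every Classical mono and Resident-like library was above every CMDM library, and within each of these pairs of fractions the libraries overlapped. In its single-cell data the paper assigned resident-like macrophages as low in *Ccr2* and monocyte-derived macrophages as high. The sorted fractions with the corresponding names ran the other way in CPM, and the reason was not tested. *Ccr2* fell by 1.60 on the log2 scale in Early CMDM against Classical mono (standard error 0.15, adjusted p = 3.41e-07), by the quasi-likelihood test of edgeR, whose p-values were adjusted over all genes by Benjamini-Hochberg as everywhere below unless another tool is named. It was higher in Resident-like than in Late CMDM (log2 fold change 2.03, standard error 0.15, adjusted p = 1.10e-07). Between Resident-like and Classical mono the log2 difference was 0.17 (95% interval -0.14 to 0.48, adjusted p = 0.483), and between Late and Early CMDM it was -0.26 (95% interval -0.58 to 0.05, adjusted p = 0.201). Per 10000 leukocyte counts the Early CMDM libraries (1041 to 1047) lay at the level of Classical mono (879 to 1050), with a log2 difference of 0.14 (adjusted p = 0.377), so that the lower *Ccr2* of Early CMDM was not called on that scale. The Late CMDM libraries stayed lowest on it, at 446 to 458. Resident-like also had the highest sums of 3 Langerhans cell genes (969 to 1264 CPM, against 103 to 560 CPM elsewhere) and of 5 conventional dendritic cell genes (571 to 619 CPM, against 62.0 to 284 CPM elsewhere), with none of these genes at 0 in any fraction. Most of the latter sum was *Cd209a* (mean 555 CPM in Resident-like). Of the 5 genes, 1 was called higher and 2 lower in Resident-like than in Classical mono. *Flt3* (mean 68.9 CPM) and *Clec9a* (8.37 CPM) were highest in Classical mono. Of the Langerhans cell genes, *Cdh1* was highest in Early CMDM (mean 265.5 CPM, against 106.2 CPM in Resident-like). The part of both lists in the *Ccr2* level was not tested.

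*Cx3cr1*, the receptor for fractalkine, showed the same high and low fractions as *Ccr2* with a wider gap. It measured 40.2, 56.7 and 35.5 CPM in Classical mono, 6.87, 4.43 and 5.38 CPM in Early CMDM, 11.5, 8.45 and 7.21 CPM in Late CMDM, and 48.2, 25.7 and 33.5 CPM in Resident-like. All Classical mono and Resident-like libraries were above all CMDM libraries. *Cx3cr1* was 7.92-fold lower in Early CMDM than in Classical mono (log2 fold change -2.99, standard error 0.27, adjusted p = 6.16e-07) and 4.90-fold lower in Late CMDM (log2 fold change -2.29, standard error 0.26, adjusted p = 9.05e-06). It kept these directions on the leukocyte scale, at -1.22 (adjusted p = 0.000142) and -1.50 (adjusted p = 3.39e-05). Resident-like was above Early CMDM by 2.69 and above Late CMDM by 1.99 on the log2 scale (adjusted p = 1.55e-06 and 5.73e-05). The Early and Late CMDM libraries did not overlap, but the difference of 0.69 was not called (95% interval 0.08 to 1.30, adjusted p = 0.0794), and it was -0.28 with leukocyte scaling. DESeq2 called it (0.71, adjusted p = 0.0283).

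**Figure D2:**
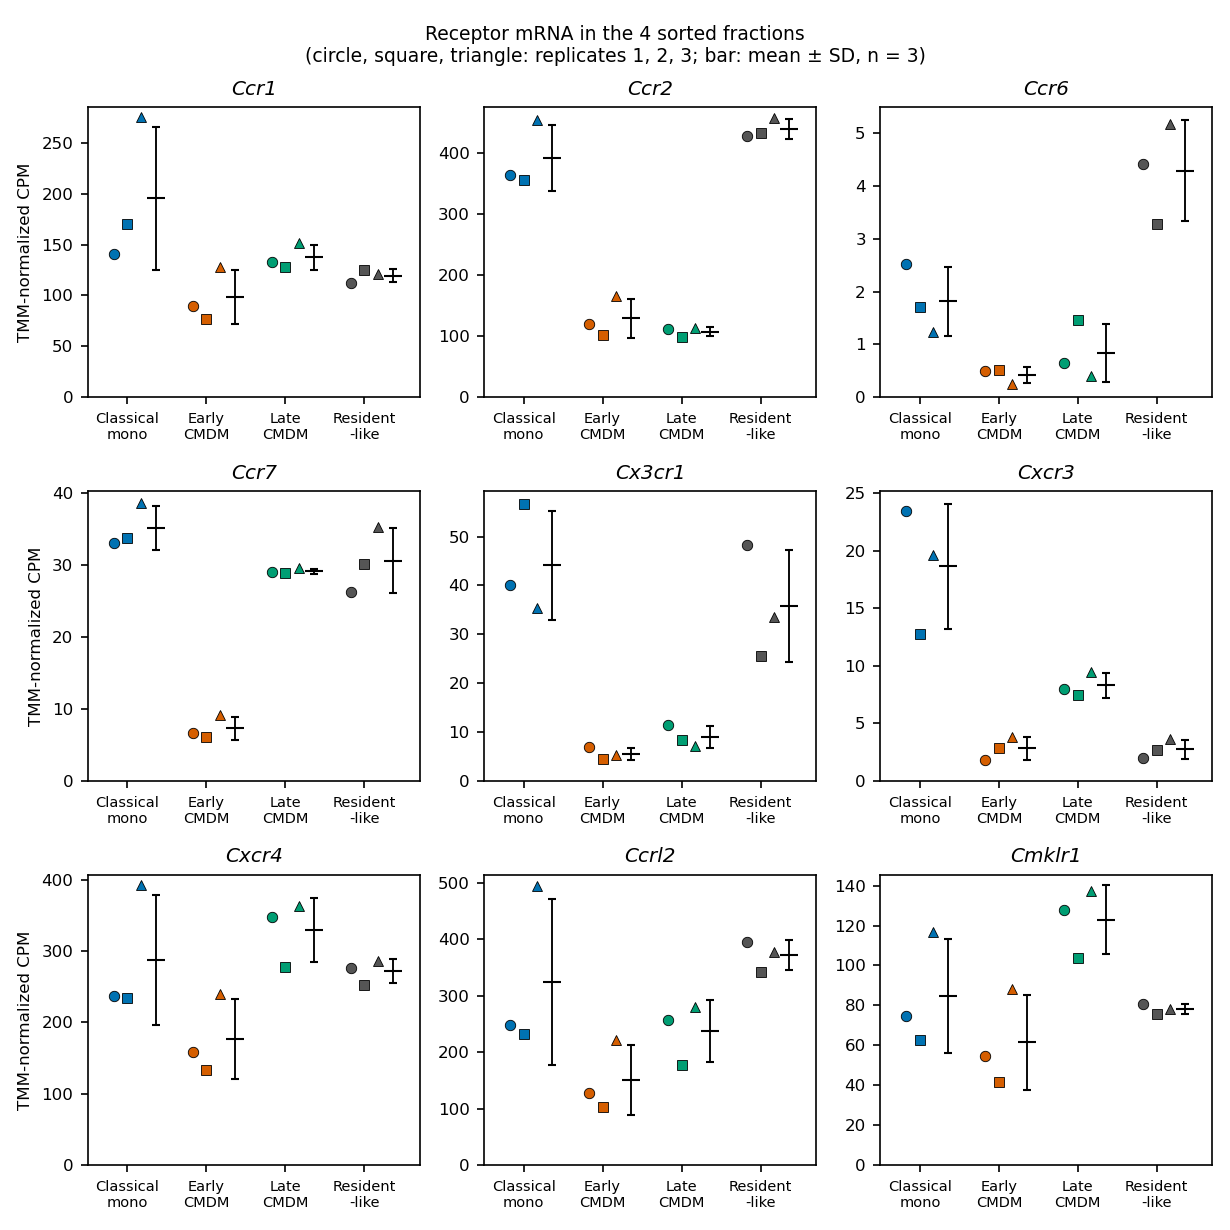
TMM-normalized CPM of the 9 receptors in each library of the 4 fractions (circle, square and triangle: replicates 1, 2 and 3), with the mean ± SD of 3 libraries beside them. *Ccr2* and *Cx3cr1* were high in Classical mono and Resident-like, *Ccr7* was lowest in Early CMDM, *Ccr6* was highest in Resident-like and *Cxcr3* in Classical mono; scaled by leukocyte genes instead, *Ccr2* of Early CMDM was at the level of Classical mono.

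*Ccr1*, the receptor for CCL3, CCL6 and CCL9, varied less than *Ccr2* between fractions. Its level was 141, 171 and 275 CPM in Classical mono, 89.9, 76.8 and 128 CPM in Early CMDM, 133, 128 and 152 CPM in Late CMDM, and 112, 125 and 121 CPM in Resident-like. The third library was the highest of its fraction in Classical mono, Early CMDM and Late CMDM, and this was so for *Cxcr4*, *Ccrl2* and *Cmklr1* as well. In Resident-like the third library was highest for *Cxcr4* among these 4 receptors. *Ccr1* fell by 0.99 on the log2 scale in Early CMDM against Classical mono (standard error 0.22, adjusted p = 0.00227), but rose by 0.76 (adjusted p = 0.00032) with leukocyte scaling, which put it at 785 to 817 in Early CMDM and 355 to 639 in Classical mono per 10000 leukocyte counts. In Resident-like it was lower than in Classical mono by 0.71 (standard error 0.22, adjusted p = 0.0302). That call was lost without the third Classical mono library, at -0.38 (adjusted p = 0.118), and without any 1 of the Resident-like libraries. Neighbours in the order of levels, from Classical mono through Late CMDM and Resident-like to Early CMDM, did not differ at the threshold, with adjusted p = 0.0905, 0.534 and 0.325.

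*Cxcr4*, the CXCL12 receptor that holds leukocytes in bone marrow and tissue, was the highest of the 9 receptors per kilobase of transcript in Classical mono, Early CMDM and Late CMDM, at means of 159.6, 98.0 and 182.6 CPM per kilobase. In Resident-like its mean was 150.8 CPM per kilobase, next to 151.2 CPM per kilobase for *Ccrl2*. *Cxcr4* measured 237, 234 and 393 CPM in Classical mono, 158, 133 and 240 CPM in Early CMDM, 347, 278 and 364 CPM in Late CMDM, and 277, 253 and 287 CPM in Resident-like. Early CMDM was the low fraction, although the third of its libraries reached the Classical mono range. *Cxcr4* was 1.86-fold higher in Late than in Early CMDM (log2 fold change 0.90, standard error 0.22, adjusted p = 0.0068) and 1.63-fold lower in Early CMDM than in Classical mono (log2 fold change -0.70, standard error 0.22, adjusted p = 0.0192). Resident-like exceeded Early CMDM by 0.62 (standard error 0.22, adjusted p = 0.034). With leukocyte scaling Early CMDM was above Classical mono by 1.03 (adjusted p = 4.27e-06), Resident-like was below Early CMDM by 0.92 (log2 fold change -0.92, adjusted p = 2.34e-05), and Late against Early CMDM was at -0.038 (adjusted p = 0.847). The lower level in Early CMDM against Classical mono lost its call without the third Classical mono library (-0.41, adjusted p = 0.101) or without the first or second Early CMDM library (-0.62 and -0.52). The call of Resident-like against Early CMDM was lost without the first or second Early CMDM library (0.54 and 0.45, adjusted p = 0.114 and 0.147) and without any 1 of the Resident-like libraries (0.58 to 0.67).

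*Cmklr1*, the signalling receptor for chemerin, was highest in Late CMDM. It measured 74.9, 62.5 and 117 CPM in Classical mono, 54.5, 41.8 and 88.0 CPM in Early CMDM, 128, 104 and 137 CPM in Late CMDM, and 80.7, 75.8 and 78.0 CPM in Resident-like. All Late CMDM libraries lay above all Early CMDM and Resident-like libraries, and only the third Classical mono library reached their range. Late CMDM was above Early CMDM (log2 fold change 0.9998, standard error 0.26, adjusted p = 0.00943), and this difference was 0.08 with leukocyte scaling (adjusted p = 0.688). Against Classical mono the difference of 0.54 was not called (95% interval -0.02 to 1.09, adjusted p = 0.123). It was called without the third Classical mono library (0.84, adjusted p = 0.017), without the third Early CMDM library (0.54, adjusted p = 0.0471) and with leukocyte scaling (1.34, adjusted p = 8.64e-07). Resident-like was 0.65 below Late CMDM (95% interval -1.21 to -0.10, adjusted p = 0.076), a difference that DESeq2 called (-0.66, adjusted p = 0.0258) and that leukocyte scaling put at -1.26 (adjusted p = 4.51e-06). It was also called without the third Classical mono library (-0.65, adjusted p = 0.0328) and without the third Early CMDM library (-0.65, adjusted p = 0.0259).

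*Ccrl2*, the chemerin-presenting receptor, varied widely between libraries of 1 fraction. Its level was 248, 232 and 493 CPM in Classical mono, 128, 102 and 221 CPM in Early CMDM, 257, 176 and 280 CPM in Late CMDM, and 396, 342 and 377 CPM in Resident-like. The SD was 45.2% of the mean in the fraction where it was widest and 7.25% where it was narrowest. *Ccrl2* was 2.47-fold higher in Resident-like than in Early CMDM (log2 fold change 1.31, standard error 0.33, adjusted p = 0.00613), and on the leukocyte scale the difference was -0.22 (adjusted p = 0.334). It fell by 1.11 in Early CMDM against Classical mono (standard error 0.33, adjusted p = 0.0153), which leukocyte scaling reversed to a rise of 0.61 (adjusted p = 0.0102). Without the third Classical mono library that fall was 0.67 and not called (adjusted p = 0.0769), and without the first or second Early CMDM library it was 0.99 and 0.88 (adjusted p = 0.0589 and 0.0769). Resident-like and Late CMDM did not overlap in *Ccrl2*, but the difference of 0.65 was not called (95% interval -0.06 to 1.35, adjusted p = 0.166).

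Of the other receptors, *Cmklr1* and then *Ccr1* were nearest to *Cxcr4* in pattern. The likeness used was the root mean square difference of log2 CPM over the 12 libraries after each gene was centred on its own mean, where smaller values are more alike. It was 0.17 between *Cxcr4* and *Cmklr1*, 0.30 between *Ccr1* and *Cxcr4*, 0.38 between *Cxcr4* and *Ccrl2*, and 0.39 between *Ccr1* and *Cmklr1*, against 1.72 for *Ccr6* and *Cxcr3*, the least alike pair. *Ccrl2* was at 0.46 from *Ccr1* and at 0.52 from *Cmklr1*. In Late CMDM against Classical mono, *Ccr1* and *Cmklr1* went in opposite directions (log2 fold changes -0.51 and 0.54, neither called). As *Cmklr1* and *Ccr1* were nearest to *Cxcr4*, the 250 bases before the start of *Cxcr4*, *Cmklr1* and *Ccr1* are shown. These windows come from RefSeq on GRCm38.p6, on the minus strand and with no annotated exon inside. They are chr1:128592300-128592549 for *Cxcr4*, chr5:113643604-113643853 for *Cmklr1* (inside the annotated span of the gene) and chr9:123968693-123968942 for *Ccr1*. Capitals mark a match to 1 of 7 searched motifs.
Cxcr4: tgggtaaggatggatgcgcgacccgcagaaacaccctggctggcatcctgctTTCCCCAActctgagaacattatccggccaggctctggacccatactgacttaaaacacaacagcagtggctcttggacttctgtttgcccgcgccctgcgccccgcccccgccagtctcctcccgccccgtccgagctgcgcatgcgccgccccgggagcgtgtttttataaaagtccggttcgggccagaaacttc
Cmklr1: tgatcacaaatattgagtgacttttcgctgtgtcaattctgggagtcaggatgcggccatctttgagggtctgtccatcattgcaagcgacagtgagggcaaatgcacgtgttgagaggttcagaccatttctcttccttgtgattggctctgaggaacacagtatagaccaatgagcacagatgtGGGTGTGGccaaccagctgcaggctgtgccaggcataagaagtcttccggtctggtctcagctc
Ccr1: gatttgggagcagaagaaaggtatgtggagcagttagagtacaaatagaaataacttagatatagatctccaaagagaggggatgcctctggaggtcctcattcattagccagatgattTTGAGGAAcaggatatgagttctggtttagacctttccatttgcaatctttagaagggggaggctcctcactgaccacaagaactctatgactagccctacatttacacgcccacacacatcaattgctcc

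Searched on both strands were the PU.1 core AGGAAGT, AP-1 TGANTCA, C/EBP TTNNGNAA and KLF CCACACCC, and the motifs STAT6 (TTC and GAA parted by any 4 bases), NF-kB (GGGA and TTTCC parted by any base) and ISRE (GAAA on both sides of any 2 bases). None of these motifs contains another. *Cxcr4* and *Ccr1* each held a C/EBP match, TTCCCCAA at 198 and TTGAGGAA at 131 bases before the start. *Cmklr1* held a KLF match at 64 bases before the start, as the reverse complement GGGTGTGG, and no match was shared by all 3 genes. Among 32851 promoter windows of the same length, 36.8% held the C/EBP letters and 3.2% the KLF letters. The shares were 7.69% for PU.1, 5.85% for STAT6, 6.75% for AP-1, 0.356% for NF-kB and 2.98% for ISRE. A match describes letters in these windows only, and windows without one say nothing about the factor.

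*Ccr7*, which guides dendritic cells to lymph nodes, was low in Early CMDM and, in CPM, nearly level in the other 3 fractions. It measured 33.1, 33.8 and 38.7 CPM in Classical mono, 6.68, 6.07 and 9.18 CPM in Early CMDM, 29.1, 28.9 and 29.6 CPM in Late CMDM, and 26.4, 30.2 and 35.4 CPM in Resident-like. The highest Early CMDM library stood below the lowest library of every other fraction. The log2 fold changes against Early CMDM were 1.997 for Late CMDM and 2.07 for Resident-like (adjusted p = 1.91e-07 and 2.12e-08), and Early CMDM was 2.27 below Classical mono (standard error 0.15, adjusted p = 9.73e-09). With leukocyte scaling Early CMDM was still called lowest, at 1.05 below Late CMDM (adjusted p = 3.13e-05) and 0.52 below Classical mono (adjusted p = 0.012). Resident-like and Late CMDM differed by 0.07 (95% interval -0.22 to 0.36, adjusted p = 0.754), and leukocyte scaling put this at -0.54 (adjusted p = 0.0153). Late CMDM and Classical mono did not overlap, but the difference of -0.27 was not called (95% interval -0.56 to 0.02, adjusted p = 0.141). Leukocyte scaling reversed it to 0.53 and called it (adjusted p = 0.013). The 5 genes of migratory dendritic cells, which carry CCR7, summed to 66.98 to 72.04 CPM in Late CMDM, 36.9 to 61.2 CPM in Resident-like, 39.5 to 45.7 CPM in Early CMDM and 27.4 to 41.7 CPM in Classical mono, with no gene at 0. Of the 5, 3 were called higher and 1 lower in Late than in Early CMDM. *Cacnb3* was highest in Early CMDM (mean 15.1 CPM, against 7.16 CPM in Late CMDM), where *Ccr7* was lowest. *Il12b* had its highest mean in Classical mono (3.40 CPM). The part of this list in the *Ccr7* level was not tested.

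*Ccr6*, the receptor for CCL20, was rare in all fractions and highest in Resident-like. It had 41, 31 and 22 counts in the 3 Classical mono libraries, 8, 8 and 4 in Early CMDM, 8, 24 and 6 in Late CMDM, and 82, 54 and 88 in Resident-like. In CPM the means were 1.82 ± 0.656, 0.418 ± 0.143, 0.834 ± 0.554 and 4.29 ± 0.958 (SD, n = 3), and every Resident-like library was above every other library. Resident-like exceeded Early CMDM 10.1-fold (log2 fold change 3.34, standard error 0.41, adjusted p = 5.77e-06), Late CMDM 4.98-fold (adjusted p = 0.000223) and Classical mono 2.37-fold (adjusted p = 0.00984). These 3 calls held with leukocyte scaling, at 1.76, 1.69 and 1.42 (adjusted p = 0.00133, 0.00195 and 0.00775). Late CMDM was called below Classical mono just inside the threshold (log2 fold change -1.07, standard error 0.40, adjusted p = 0.0495), and leukocyte scaling put this at -0.28 (adjusted p = 0.58). The call was lost without the first or the second library of Classical mono or Early CMDM, and without the first or the third library of Late CMDM or Resident-like (-1.11 to -0.73, adjusted p = 0.0566 to 0.202). The Langerhans cell gene *Cd207* was at 679, 859 and 920 CPM in Resident-like and at 31.1 to 75.9 CPM elsewhere. The 5 basophil and mast cell genes also summed highest in Resident-like, at 64.2 to 121.5 CPM, against 7.15 to 47.5 CPM elsewhere. Of the 4 tested, 4 were called higher there than in Late CMDM and 2 higher than in Classical mono. The parts of *Cd207*, of this list and of the Langerhans and conventional dendritic cell lists given above in the *Ccr6* level were not tested.

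*Cxcr3*, the receptor for CXCL9, CXCL10 and CXCL11 on activated T cells, NK cells and plasmacytoid dendritic cells, was highest in Classical mono. It measured 23.5, 12.8 and 19.7 CPM in Classical mono, 1.86, 2.85 and 3.799 CPM in Early CMDM, 7.96, 7.48 and 9.51 CPM in Late CMDM, and 1.995, 2.67 and 3.65 CPM in Resident-like. Classical mono stood above Late CMDM, and Late CMDM stood above both of the others, without overlap. The log2 fold changes against Classical mono were -2.72 for Early CMDM (standard error 0.27, adjusted p = 7.85e-07), -1.16 for Late CMDM (standard error 0.24, adjusted p = 0.00147) and -2.75 for Resident-like (standard error 0.27, adjusted p = 1.70e-06). Late CMDM was 2.93-fold above Early CMDM (adjusted p = 0.000527) and 3.01-fold above Resident-like (adjusted p = 0.000545). Early CMDM and Resident-like differed by -0.04 (95% interval -0.69 to 0.62, adjusted p = 0.936), and leukocyte scaling put Resident-like 1.59 below Early CMDM (adjusted p = 1.91e-05). With that scaling the lower level of Late CMDM than of Classical mono was no longer called (-0.37, adjusted p = 0.191). The marker lists of the lymphoid cells that carry CXCR3 were also highest in Classical mono, with 4 NK cell genes at 274 to 470 CPM against 11.9 to 24.5 CPM elsewhere, 5 T cell genes at 130 to 172 CPM against 19.0 to 46.2 CPM, and 3 plasmacytoid dendritic cell genes at 249 to 462 CPM against 15.1 to 46.8 CPM. No gene of these lists was at 0 in any fraction, and their part in the *Cxcr3* level was not tested. Late CMDM, with more *Cxcr3* than Resident-like, had lower NK (11.9 to 14.2 CPM against 18.9 to 24.5 CPM) and T cell sums (20.1 to 23.8 CPM against 32.0 to 46.2 CPM) and a higher plasmacytoid dendritic cell sum (31.0 to 46.8 CPM against 20.9 to 26.2 CPM).

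The summed level of the 9 receptors was 1383 ± 384 CPM in Classical mono, 632 ± 204 CPM in Early CMDM, 982 ± 136 CPM in Late CMDM and 1354 ± 56.7 CPM in Resident-like (SD, n = 3), and the Early CMDM (468.7 to 860.8 CPM) and Late CMDM libraries (830.6 to 1092 CPM) overlapped. Per 10000 leukocyte counts the order turned, with 4819 to 5472 in Early CMDM, 2867 to 4235 in Classical mono, 3778 to 4375 in Late CMDM and 3611 to 3946 in Resident-like. Early CMDM against Classical mono gave 8 of 9 receptors called lower and 0 higher, where 44.9% of all genes were called and 20.6% called lower. The libraries of 7 of the 9 did not overlap, against 54.4% of all genes. The receptor not called was *Cmklr1*, at -0.46 (95% interval -1.02 to 0.09, adjusted p = 0.162), and without the third Early CMDM library it was called as well (-0.81, adjusted p = 0.0113). With leukocyte scaling 4 receptors (*Ccr1*, *Cxcr4*, *Ccrl2* and *Cmklr1*) were called higher and 3 (*Ccr7*, *Cx3cr1* and *Cxcr3*) lower, where 93.3% of all genes were called and 97.8% of those calls were higher. The keratinocyte and pan-leukocyte sums given above also set Early CMDM apart from the other fractions, and their part in these counts was not tested.

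The other comparisons with Early CMDM mirrored this, and they share its libraries. Late against Early CMDM gave 4 of 9 receptors higher (*Ccr7*, *Cxcr3*, *Cmklr1* and *Cxcr4*) and 0 lower, where 31.9% of all genes were called and 14.4% called higher, and 5 of 9 did not overlap, against 49% of all genes. Resident-like against Early CMDM gave 6 higher (*Ccr6*, *Cx3cr1*, *Ccr7*, *Ccr2*, *Ccrl2* and *Cxcr4*) and 0 lower, where 46.6% of all genes were called, 21.4% higher and 25.1% lower, and 6 of 9 did not overlap, against 55.9%. With leukocyte scaling the first became 1 higher (*Ccr7*) and 2 lower (*Ccr1* and *Ccr2*), where 74.2% of all genes were called and 0.865% of those calls were higher. The second became 3 higher (*Ccr6*, *Ccr7* and *Cx3cr1*) and 4 lower (*Ccr1*, *Cxcr3*, *Cxcr4* and *Cmklr1*), where 91% were called and 1.5% of the calls were higher.

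**Figure D3:**
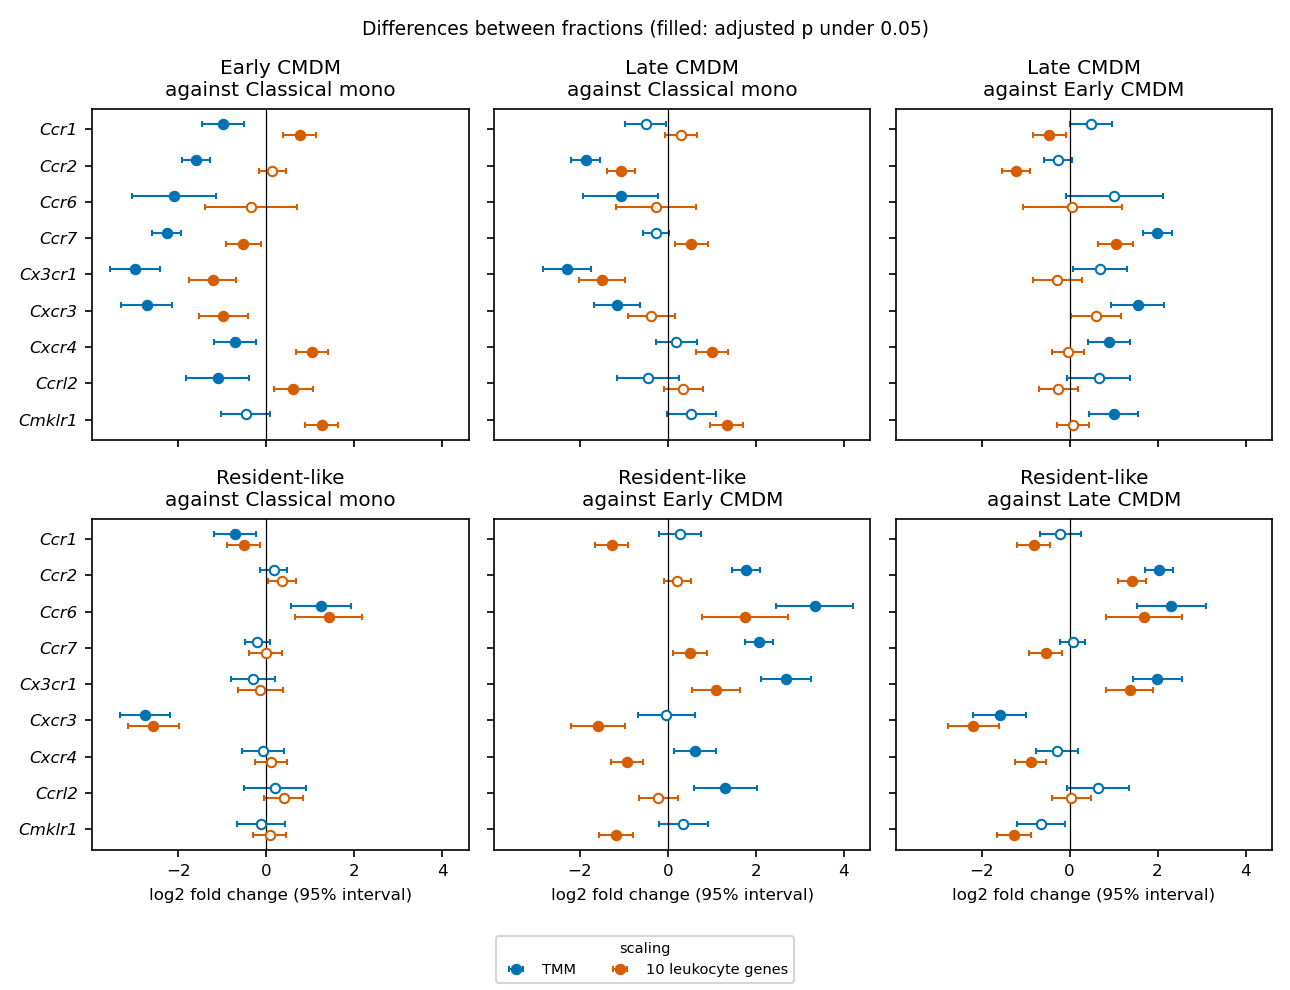
Log2 fold changes of the 9 receptors with 95% intervals in the 6 comparisons, with TMM (blue) and with scaling by 10 leukocyte genes (orange), filled where the adjusted p was under 0.05. In comparisons with Early CMDM the scalings differ in sign for several receptors, as for *Cxcr4* in Early CMDM against Classical mono (-0.70 and 1.03), and in Resident-like against Classical mono they lie close together.

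Late CMDM against Classical mono gave 4 of 9 receptors lower (*Cx3cr1*, *Ccr2*, *Cxcr3* and *Ccr6*) and 0 higher, where 35.6% of all genes were called and 17.5% called lower. The libraries of 4 receptors did not overlap, against 47.7% of all genes. With leukocyte scaling 3 were higher (*Cmklr1*, *Cxcr4* and *Ccr7*) and 2 lower (*Cx3cr1* and *Ccr2*), where 68.4% of all genes were called and 92.7% of those calls were higher.

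Resident-like and Classical mono, the pair with the closest leukocyte sums, differed in 3 of 9 receptors, where 23.7% of all genes were called. *Ccr6* was higher (10.8% of all genes were called higher), *Cxcr3* and *Ccr1* were lower (12.9% were called lower), and these 3 receptors did not overlap, against 34.6% of all genes. The same receptors were called in the same directions with leukocyte scaling, where 18.1% of all genes were called and 61% of those calls were higher. The third Classical mono library stood apart from the other Classical mono libraries in *Ccr1*, *Cxcr4*, *Ccrl2* and *Cmklr1*. With the third libraries of Classical mono and Early CMDM both left out, a choice made after seeing the data, 5 receptors were called here, among them *Ccr2* (0.30, adjusted p = 0.0307) and *Ccrl2* (0.65, adjusted p = 0.0117).

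Resident-like against Late CMDM gave 3 of 9 higher (*Ccr6*, *Ccr2* and *Cx3cr1*) and 1 lower (*Cxcr3*), where 28.1% of all genes were called, 12.7% higher and 15.4% lower. The libraries of 7 receptors did not overlap, against 43.1% of all genes. With leukocyte scaling the same 4 were called in the same directions, and *Ccr1*, *Ccr7*, *Cxcr4* and *Cmklr1* were called lower in Resident-like in addition, where 53.3% of all genes were called and 5.2% of those calls were higher.

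**Figure D4:**
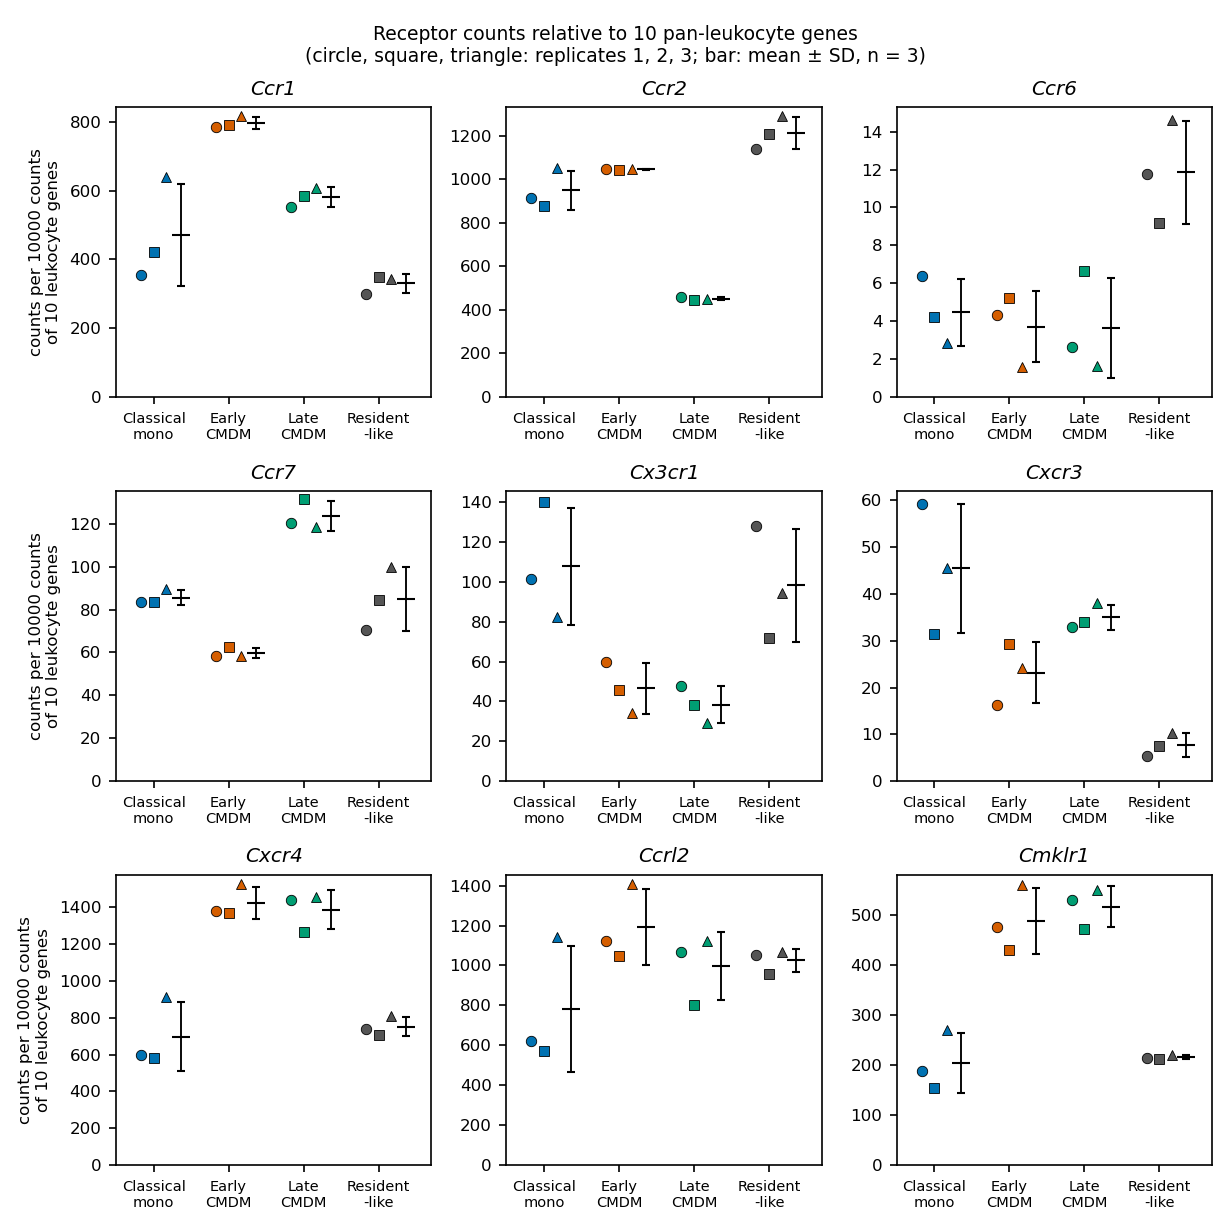
Counts of the 9 receptors per 10000 counts of 10 pan-leukocyte genes in each library (circle, square and triangle: replicates 1, 2 and 3), with the mean ± SD of 3 libraries. On this scale *Ccr1* was highest in Early CMDM (785 to 817), *Cxcr4* and *Cmklr1* were higher in both CMDM fractions than in the other fractions, and *Ccr2* was lowest in Late CMDM (446 to 458); in CPM *Ccr1* was lowest in Early CMDM and *Cxcr4* was lower in Early CMDM than in Classical mono.

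For each receptor the 3 genes with the nearest pattern were taken from 14651 tested genes with a mean of at least 1 CPM, by the same root mean square difference over 12 libraries. *Cxcr4* was nearest to *Rasa4*, *Neu1* and *Fermt3* (0.13 each), *Ccr1* to *Mxd1*, *Sestd1* and *Cd274* (0.14 to 0.17) and *Cmklr1* to *Galns*, *Grn* and *Slc43a2* (0.14 to 0.15). *Ccrl2* was nearest to *Tnfsf14*, *Ppp1r18* and *Dglucy* (0.15 to 0.21), and *Ccr2* to *Ptk2b*, *Snx20* and *Lmnb1* (0.19 to 0.24). The receptors with steeper patterns had looser neighbours. These were *Cd37*, *Xlr4c* and *Mef2c* for *Ccr7* (0.28 to 0.30) and *Clec12a*, *Cd244a* and *AI504432* for *Cx3cr1* (0.28 to 0.31). *Ccr6* was nearest to *Tmem176a*, *Alcam* and *Cma1* (0.39 to 0.42), and *Cxcr3* to *Ctla2b*, *AW112010* and *Itgb3* (0.39 to 0.52).

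Of 17 other chemokine receptors, 14 were tested, all but *Ccr10*, *Ccr1l1* and *Cxcr1*. *Ccr9*, the CCL25 receptor of gut-homing lymphocytes and plasmacytoid dendritic cells, was at 383, 216 and 262 CPM in Classical mono and at 10.35 to 14.04 CPM in the other 9 libraries. It was 21.8-fold lower in Early CMDM than in Classical mono (adjusted p = 1.48e-10) and kept this direction with leukocyte scaling (log2 fold change -2.66). The scavenging receptors *Ackr3* (CXCL12) and *Ackr4* (CCL19, CCL20 and CCL21) had their lowest means in Resident-like, at 3.77 to 6.19 CPM and 2.86 to 4.25 CPM, the latter overlapping Late CMDM and Classical mono. *Ackr4* was 3.93-fold higher in Early CMDM than in Classical mono (adjusted p = 7.27e-06). The keratinocyte sums given above were also highest in Early CMDM, and the part of other cell types in the *Ackr3* and *Ackr4* levels was not tested. *Cxcr2*, a receptor best known on neutrophils, stayed at 6.83 to 9.48 CPM in all libraries and was called in none of the 6 comparisons by edgeR (adjusted p = 0.646 to 0.926), whereas with leukocyte scaling it was called higher in Early CMDM than in Classical mono (log2 fold change 1.91). Of the 14 tested, 3 rose (*Ackr2*, *Ackr4* and *Ccr4*) and 5 fell (among them *Ccr8*, *Ccr9*, *Cxcr5* and *Cxcr6*) in Early CMDM against Classical mono, with a median log2 fold change of 0.22 against -0.01 for all genes. With leukocyte scaling 9 rose and 3 fell.

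All 18 ligand genes on the list were tested. *Ccl8*, counted as a ligand on this list, was at 615, 635 and 657 CPM in Classical mono, 2721, 2094 and 4169 CPM in Early CMDM, 9067, 8202 and 11040 CPM in Late CMDM, and 612, 833 and 770 CPM in Resident-like. The Late CMDM libraries did not overlap any others, and *Ccl8* was 14.9-fold higher there than in Classical mono (log2 fold change 3.89, standard error 0.22, adjusted p = 5.12e-09). The CCR2 ligands *Ccl2* (396 ± 45.1 CPM) and *Ccl7* (586 ± 54.3 CPM) also had their highest means in Late CMDM (SD, n = 3), where *Ccr2* was lowest, and were 3.23-fold and 3.71-fold above Classical mono (adjusted p = 8.66e-07 and 1.31e-06). The CCR1 ligand *Ccl6* was 3.04-fold higher in Late CMDM than in Classical mono (adjusted p = 0.0039) and *Ccl9* 1.51-fold (adjusted p = 0.0243). Leukocyte scaling kept these 5 calls and their direction (log2 fold changes 1.39 to 4.68). In all, 8 of 18 ligands rose and 7 fell in Late CMDM against Classical mono (median log2 fold change 0.47, against -0.01 for all genes), and with leukocyte scaling 9 rose and 3 fell. *Ccl21a*, which encodes the CCR7 ligand CCL21 and was chosen after its values were seen, was at 182.4, 186 and 104.6 CPM in Late CMDM and at 8.56 to 49.1 CPM elsewhere. The 4 lymphatic endothelium genes, of which *Ccl21a* is a member, summed to 250.8 to 311.4 CPM in Late CMDM against 45.1 to 133 CPM elsewhere, with none at 0 and all 4 called higher than in Classical mono, and their part in the ligand levels was not tested.

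Late against Early CMDM gave 9 ligands higher and 5 lower (*Ccl19*, *Ccl20*, *Cx3cl1*, *Cxcl12* and *Rarres2*; median 0.66, against 0.02 for all genes), and with leukocyte scaling 4 rose and 8 fell. Early CMDM against Classical mono gave 7 higher and 5 lower (*Ccl3*, *Ccl4*, *Ccl5*, *Cxcl10* and *Cxcl11*; median 0.19, against -0.01), and 15 higher and 1 lower with leukocyte scaling, beside the 93.3% of all genes called there, most of them higher. The CCL20 gene *Ccl20* was at 102, 128 and 73.8 CPM in Early CMDM and at most 21.8 CPM elsewhere, while its receptor gene *Ccr6* was lowest there in CPM. The chemerin gene *Rarres2* was at 54.0 to 154 CPM in Classical mono and 99.5 to 118 CPM in Early CMDM, against 6.52 to 12.8 CPM in Late CMDM and Resident-like. The CXCL12 gene had its lower levels in the same fractions, at 4.85 to 14.0 CPM, against 26.8 to 49.5 CPM in the other fractions. These 3 ligand genes were chosen after their values were seen. The 6 fibroblast genes, at 2988 to 5588 CPM in Classical mono and Early CMDM and 276 to 499 CPM in the others, moved with *Rarres2* and *Cxcl12*, and the keratinocyte sums given above with *Ccl20*. None of these genes was at 0, and their part was not tested.

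**Figure D5:**
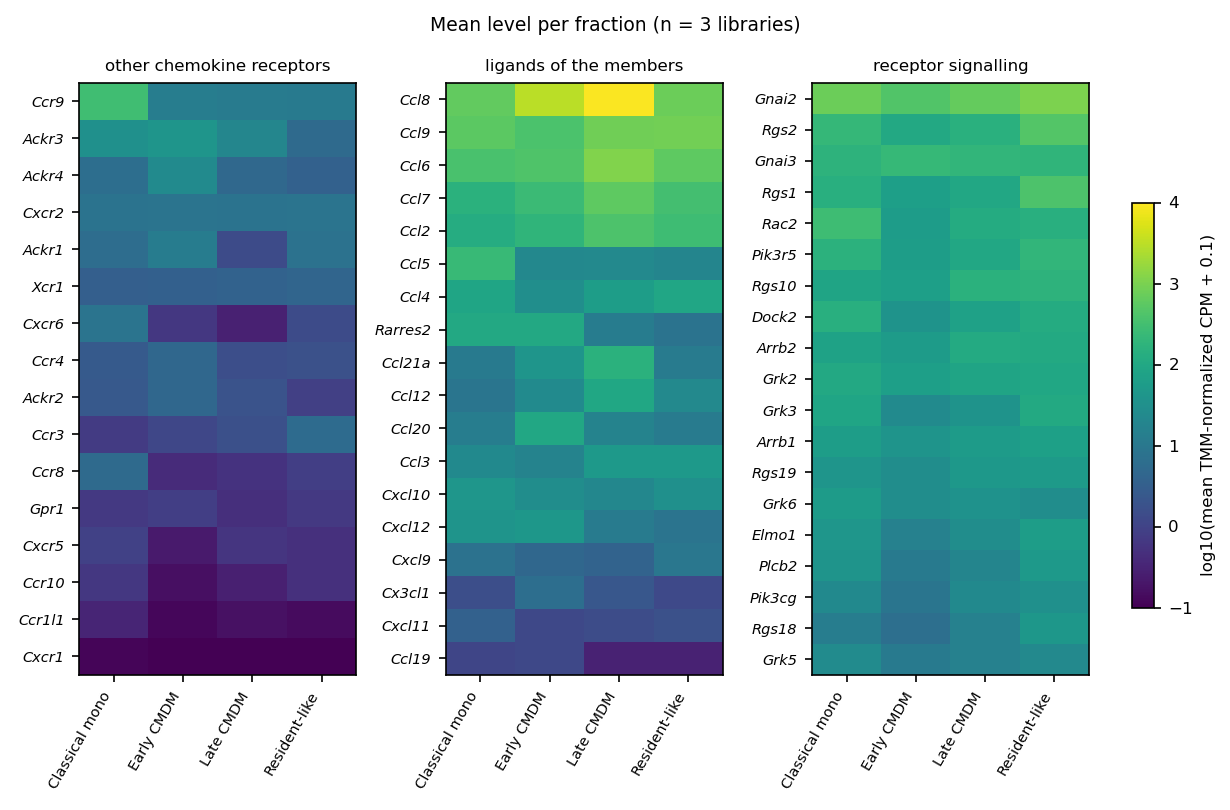
Mean level of 16 other chemokine receptors, ligands of the 9 receptors and receptor signalling genes in the 4 fractions (3 libraries each), as the log10 of the mean TMM-normalized CPM plus 0.1, with genes ordered by their mean over 12 libraries. *Ccl8* in Late CMDM is the brightest cell, at a mean of 9436 CPM, *Ccr9* is bright in Classical mono only, and 16 of 19 signalling genes fell in Early CMDM against Classical mono, while 12 of 19 rose there when scaled by leukocyte genes.

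Genes that transmit or end chemokine receptor signals also mostly fell in Early CMDM against Classical mono by CPM. Of 19, 1 rose (*Gnai3*, an inhibitory G protein subunit, 1.33-fold) and 16 fell in Early CMDM against Classical mono, with a median log2 fold change of -1.03 against -0.01 for all genes, but 12 rose and 1 fell with leukocyte scaling (median 0.74, beside a shift of the median gene of 1.78). The gene that fell on that scale too was *Rac2*, a GTPase of leukocyte migration that is itself 1 of the 10 scaling genes. *Gnai2*, the main inhibitory G protein subunit of leukocytes, was at 698, 724 and 882 CPM in Classical mono, 416, 369 and 522 CPM in Early CMDM, 647, 631 and 665 CPM in Late CMDM, and 1040, 1009 and 1025 CPM in Resident-like. Resident-like was above all other libraries, 1.33-fold above Classical mono (adjusted p = 0.0227) and 2.35-fold above Early CMDM (adjusted p = 7.09e-07), although leukocyte scaling put the latter at -0.34 on the log2 scale (adjusted p = 0.0455). *Rgs1* and *Rgs2*, which end G protein signals, were likewise highest in Resident-like, at 402 ± 24.2 CPM and 462 ± 57.9 CPM (SD, n = 3). *Rgs1* was 2.82-fold above Classical mono there (log2 fold change 1.49, standard error 0.11, adjusted p = 4.28e-08) and *Rgs2* 2.13-fold (log2 fold change 1.09, standard error 0.12, adjusted p = 3.92e-06). Both were higher in Resident-like than in each other fraction with either scaling. Resident-like against Late CMDM gave 11 signalling genes higher and 0 lower (median 0.56, against 0.00 for all genes), and 6 higher and 6 lower with leukocyte scaling.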

How the data were processed

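The authors deposited raw counts by gene symbol. According to the submitters' processing notes and the study's methods, reads were trimmed (cutadapt 4.1), aligned by Bowtie2 2.4.5 to GRCm38 RNA on a single strand, and added up over the transcripts of a symbol, with no normalization. Near-identical sequences could therefore share reads. No deposited column was left out (unused columns: 0), and groups follow the sample labels. The counts were analysed in R 4.3.3 with edgeR 4.0.16: TMM factors, filterByExpr with the fractions as groups, then a robust quasi-likelihood model of the 12 libraries with a coefficient for each fraction. This left 22118 of 37775 genes and gave 6 comparisons, adjusted by Benjamini-Hochberg over all tested genes at a threshold of 0.05, with 95% intervals of log2 fold changes. With 12537178 to 19844113 counts per library, a floor of 3 counts was 0.151 to 0.239 CPM, which reflects counting error alone. Replicates were distinct libraries (chi-square 4.24 to 21.9 per df). The test was first tried on simulated counts.

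Positions and transcript lengths come from GENCODE M21 (GRCm38), and CPM per kilobase uses the longest transcript. Promoters come from RefSeq, in which 8 of 9 receptors matched. The receptors, gene lists, scaling genes and named-gene rule were chosen with earlier results of these data known. By that rule all 9 receptors are named, the 5 genes with the highest mean of each pathway list, counts of 5 or fewer, and for each receptor the 3 genes nearest in centred log2 CPM (prior count 2). A gene of the other receptors is counted in that list but is not reported here. Log2 fold changes come from the fits, and alternatives are DESeq2 1.42.0, other scalings and filters, a replicate block, fits of single comparisons, a threshold of 0.01 and leaving out each library.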

Additional observations from a re-analysis of the deposited data

How the results depend on the processing

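For the 54 log2 fold changes of the 9 receptors, leaving out each library in turn kept direction and call in 606 of 648 values. Outside leukocyte scaling, the other 11 settings kept both in 542 of 593. With RLE size factors or without genes over 1% of counts, all 54 kept both.

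Early CMDM against Classical mono gave 6 to 9 called receptors when a library was left out, Late CMDM against Classical mono 3 to 5, Late against Early CMDM 4 to 6, Resident-like against Classical mono 2 to 3, Resident-like against Early CMDM 5 to 7 and Resident-like against Late CMDM 4 to 5. Late against Early CMDM moved from 4 to 2 with no filter on low counts and to 7 with a replicate block, the added calls being *Ccr1*, *Cx3cr1* and *Ccrl2*. Resident-like against Late CMDM moved from 4 to 8 with leukocyte scaling and to 7 in a fit of its own libraries. Resident-like against Classical mono moved from 3 to 5 with the third libraries of Classical mono and Early CMDM left out, an alternative chosen after seeing the data. The cause was not tested.

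Leukocyte scaling reversed the log2 fold changes of *Ccr1* (0.76), *Ccr2* (0.14), *Cxcr4* (1.03), *Ccrl2* (0.61) and *Cmklr1* (1.26) in Early CMDM against Classical mono. It also reversed *Ccr1* (0.30), *Ccr7* (0.53) and *Ccrl2* (0.35) in Late CMDM against Classical mono, and *Ccr1* (-0.46), *Cx3cr1* (-0.28), *Cxcr4* (-0.038) and *Ccrl2* (-0.26) in Late against Early CMDM. In Resident-like it reversed *Cxcr4* (0.11) and *Cmklr1* (0.076) against Classical mono, *Ccr1* (-1.27), *Cxcr4* (-0.92), *Ccrl2* (-0.22) and *Cmklr1* (-1.18) against Early CMDM, and *Ccr7* (-0.54) against Late CMDM. These shifts follow from the scaling itself, which moves all genes together. Library size only reversed *Ccr2* in Resident-like against Classical mono (-0.0027) and *Ccr7* in Resident-like against Late CMDM (-0.0655). In Resident-like against Classical mono, *Cxcr4* and *Cmklr1* ranged from -0.21 to 0.21 and from -0.30 to 0.19 when a library was left out, turning positive without Classical mono replicate 3, and were 0.22 and 0.20 with the third libraries of Classical mono and Early CMDM left out. In Resident-like against Early CMDM, *Cxcr3* ranged from -0.29 to 0.24, turning to 0.24 without Early CMDM replicate 3 and to 0.16 without Resident-like replicate 1, and was 0.24 with the same pair of libraries left out. *Ccr7* in Resident-like against Late CMDM ranged from -0.048 without Resident-like replicate 3 to 0.17. None of these 10 further reversals was called before or after.

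No source says what the shared replicate numbers mark, and the main fits did not treat them as pairs. Not all same-number correlations were positive, which does not show that the libraries were unpaired. Deviations from the fraction means correlated at -0.0987 to 0.248 for the 18 pairs with the same number (median 0.0589). For the 36 other pairs they correlated at -0.215 to 0.171 (median -0.0314). Of 12 libraries, 9 correlated best with a library of their own number. As a hint from the data, not the design, *Cxcr4* was lowest in replicate 2 and highest in replicate 3 of every fraction. With the replicate block 9 of 54 values became called and none was lost. These were *Cmklr1* in Early CMDM (-0.47) and Late CMDM (0.57) against Classical mono and in Resident-like against Early CMDM (0.42) and Late CMDM (-0.63), *Ccr1* in Late CMDM against Classical mono (-0.46) and Early CMDM (0.51), *Ccrl2* in Late against Early CMDM (0.71) and Resident-like against Late CMDM (0.69), and *Cx3cr1* in Late against Early CMDM (0.69).

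Over all genes, leukocyte scaling called 20647, 15124, 16419, 4009, 20123 and 11794 genes in the 6 comparisons, in the order Early CMDM and Late CMDM against Classical mono, Late against Early CMDM, and Resident-like against Classical mono, Early CMDM and Late CMDM. The shares of calls that were higher were 97.8%, 92.7%, 0.865%, 61%, 1.5% and 5.2% there, against 54%, 50.8%, 45.1%, 45.7%, 46% and 45.1% with TMM, and 24.1%, 31.5% and 28% in the last 3 comparisons with library size only. At a threshold of 0.01, Resident-like against Classical mono gave 3427 genes instead of 5251, and against Late CMDM 3826 instead of 6225. *Ccr6* in Late against Early CMDM could not be tested in a fit of those libraries alone. Depth limits *Ccr6* most, with 4 to 24 counts in the CMDM libraries.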
